A study of Mus musculus with 8 samples.

Results

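The GDNF-Ret pathway, through which mesenchyme makes the ureteric bud branch, was followed here in embryonic mouse kidneys with and without p53. It was represented by 10 genes chosen by symbol, the ligand Gdnf, the receptors Ret and Gfra1, and the targets and restraints Etv4, Etv5, Spry1, Spry2, Dusp6, Sox8 and Sox9, out of 17305 genes that probes of the array could be matched to by RefSeq accession. All 10 had at least 1 probe, with 16 probes in all, and 9 of the 10 had a probe bright enough to test, with 13 tested probes. The exception was Ret.

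Kidneys of p53 null embryos and of p53 wild-type embryos, both of strain C57BL/6 and both at embryonic day 15.5, were compared on 8 arrays with 2 colours, with null RNA in Cy5 on 4 arrays and in Cy3 on the other 4. The arrays formed 3 replicates that the labels call biological, with 4 arrays in replicate 1 (slide 1) and 2 each in replicates 2 and 3 (slide 2). The construction of the null allele, and the number of embryos pooled per RNA, are not given in the sources used here. Each value is the log2 of null signal over wild-type signal unless a level is named, with the mean ± SD over the 3 replicates (n = 3). A spot counts as well above background where the scanner program marked it so.

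GDNF is secreted by the nephron progenitors and nearby mesenchyme. It binds the coreceptor GFRA1, which presents it to the receptor tyrosine kinase RET on the cells of the ureteric bud tip, and RET signals through ERK and PI3 kinase. The signal raises the transcription factors ETV4 and ETV5, and it also raises its own brakes, the Sprouty proteins and the ERK phosphatase DUSP6. SOX8 and SOX9 act in the bud epithelium and are needed for normal output of RET. Loss of Gdnf, Ret or Gfra1 in mice prevents or cripples growth of the bud, and loss of Spry1 yields extra buds.

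The 3 replicates did not share one picture, which touches every value below. Over the 20880 tested probes (no independent units), Pearson's r was 0.93 between replicates 2 and 3, but 0.06 and −0.15 between replicate 1 and each of them. Between the slides, the same genotype in the same dye differed with an SD over probes of 0.77 to 0.85 (log2). The wild-type channels of replicates 2 and 3 differed by an SD of 0.14 to 0.15, no more than repeat arrays of one extract in replicate 1 (0.16 to 0.23). Their null channels differed by 0.18 to 0.20, also within the range of repeat arrays, so the SD does not single out the wild-type RNA. By the median absolute deviation the wild-type channels differed by 0.11 to 0.12, against 0.08 to 0.10 for repeat arrays. The null channels differed by 0.15 to 0.18 on that measure. The names of the deposited files also carry one number for the wild-type RNA on all 4 arrays of slide 2. Replicates 2 and 3 may therefore share a wild-type extract, and a p-value from them alone measures little beyond the spread of the null RNAs. The targeted gene Trp53 was lower in each replicate on a probe spotted 10 times (−1.08, −0.47 and −0.45 in replicates 1, 2 and 3) and had 0.16 ± 0.13 on its other probe. The share of probes well above background was 57.8% to 62.8% on slide 1 and 46.9% to 51.4% on slide 2.

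The labelled tissue carried its markers. All 8 nephron progenitor genes and all 8 stromal genes listed, 11 of 12 ureteric epithelium genes, all 5 ureteric tip genes, 6 of 7 early nephron genes and 3 of 5 podocyte genes were bright enough to test. The early nephron list had medians of −0.34, −0.37 and −0.31 in replicates 1, 2 and 3. Its means were below 0 for 6 of 6 (48.7% of all probes), 3 of 6 were lower in each replicate (19.4%), and 0 passed in limma's test. Its part in the values below was not tested. Of tissues a dissection may bring, 6 of 10 peripheral nerve genes, 4 of 8 adrenal genes and 3 of 4 cartilage genes were bright enough. The defining markers Th, Dbh and Cyp21a1 stayed at background brightness in both genotypes throughout. Other adrenal genes were well above background on all 8 arrays in both genotypes, among them Pnmt (0.41 ± 0.30) and Mc2r (0.33 ± 0.10), each above 0 in each replicate without passing, and Chga (−0.05 ± 0.07) and Chgb (−0.89 ± 0.89). The part of adrenal RNA in the values below was not tested.

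No member passed the threshold of an adjusted p of 0.05 in limma's test of the 3 replicate values over all tested probes (0 of 9 members, against 0% of all probes). An unadjusted p under 0.05 was reached by 3 of 9, Spry2, Gfra1 and Sox8, against 17.2% of all probes (9.02% higher and 8.15% lower). Sox8 passed the filter on dim probes on slide 2 only through null RNA, the genotype in which it is brighter, so it had to differ there. Without it the count was 2 of 8. The mean was above 0 for 6 of 9 members, Sox8 among them, and below 0 for 3 of 9 (51.3% and 48.7% of all probes). It was beyond 1.5-fold for 0 of 9 (4.15%). The ratio had 1 sign in all 3 replicates for the same 3 members (40.4% of all probes): Gfra1 was lower in each (19.4% of all probes were), and Spry2 and Sox8 were higher in each (21% of all probes were). Sox8 is counted here although it had to differ on slide 2, and without it 2 of 8 kept 1 sign. The median ratio of the 9 members was 0.06, against 0.01 over all probes, and lay at −0.09, 0.16 and 0.21 in replicates 1, 2 and 3. It was 0.19 with median centring, where the median of all probes moved to 0.12. With slide as a fixed block it was −0.0308, against −0.0024 over all probes. Means with median centring given below carry the shift of all probes too. For 6 of 9 members replicate 1 had one sign and both replicates of slide 2 the other, against 43.5% of all probes. Replicates 2 and 3 gave the same sign for 9 of 9 members, with Sox8 included though it had to differ there, against 83.9% of all probes. With 3 replicates a permutation of signs cannot go below p = 0.25.

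**Figure D1:**
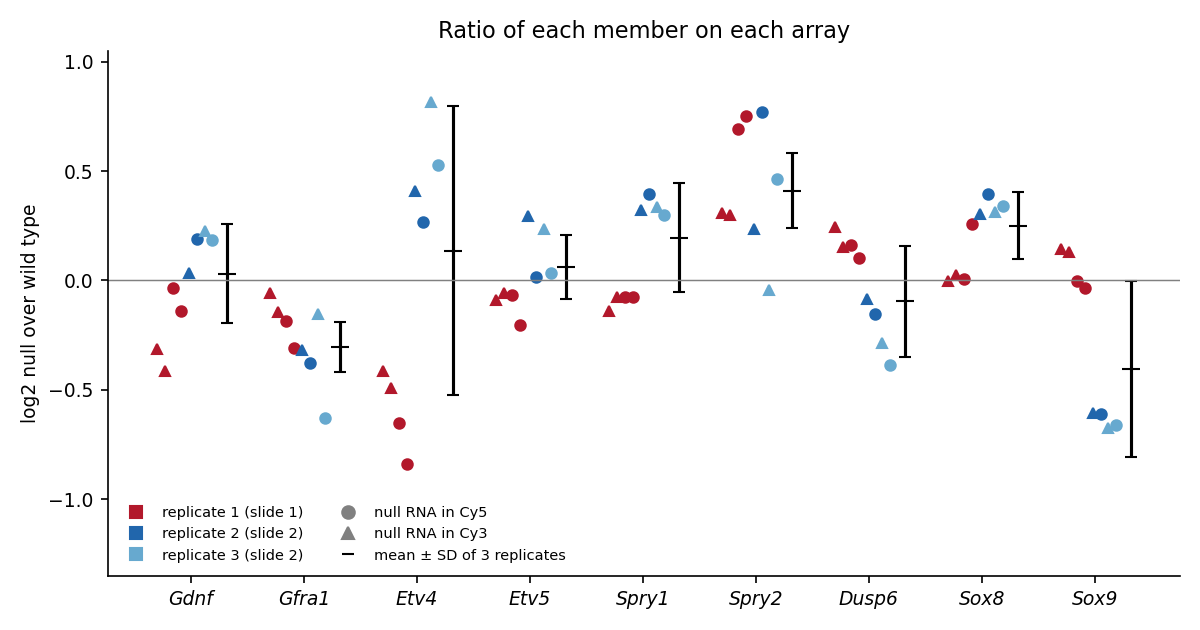
Each point is the log2 ratio of null over wild type on 1 array (vertical axis) for the brightest tested probe of 9 members (horizontal axis), coloured by replicate and shaped by dye, with the mean ± SD of the 3 replicates in black. Gfra1 lies below 0 on all 8 arrays, while the arrays of replicate 1 (red) and of slide 2 (blue) lie on opposite sides of 0 for Gdnf, Etv4, Etv5, Spry1 and Dusp6.

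The ligand gene Gdnf was well above background in both genotypes on all 8 arrays. Replicate 1 gave −0.23, and replicates 2 and 3 gave 0.11 and 0.21, with all 4 arrays of replicate 1 between −0.41 and −0.03 and all 4 arrays of slide 2 between 0.04 and 0.23. Replicate 1 was opposite in sign to both replicates of slide 2, as for 43.5% of all probes. The mean of 0.03 ± 0.23 did not pass (limma, adjusted p = 0.895). The wild-type level on this probe was nearly constant at 7.19 ± 0.04 (log2 intensity), while the null level was 6.99 in replicate 1 and 7.31 and 7.35 on slide 2. The ratio on slide 2 was 0.38 higher than on slide 1, and 0.63 higher with median centring in place of loess. By Pearson's r over the 8 arrays, which are repeats of 3 replicates, the genes most like Gdnf were Ube2r2, Pcbd1 and Zfp212, each at 0.99.

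Ret, the signalling receptor, could not be measured. Its only probe was spotted 10 times and stood well above background on 0 of 8 arrays for null RNA and on 1 of 8 for wild-type RNA. The brightness was 6.39 in null and 6.38 in wild type (log2 intensity, SD of 0.02 for each), which is the brightness of background, and the ratios of the 8 arrays ran from −0.04 to 0.10. The spots of this probe differed within an array by a median SD of 0.10, so a fold is not given. Wnt11, a gene of the same tip cells, was well above background in both genotypes on all 8 arrays.

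The coreceptor gene Gfra1 was the member with the same direction everywhere. Its ratio was −0.17, −0.35 and −0.39 in replicates 1, 2 and 3, and the 8 arrays ran from −0.63 through a median of −0.25 to −0.06, so that each array was below 0 (7.47% of all probes were lower on all 8, and 8.08% were higher on all 8, as 0 of 9 members were). The level was 8.85 ± 0.08 in wild type and 8.55 ± 0.06 in null (log2 intensity). The mean ratio of −0.30 ± 0.11, or 0.810 of wild type, did not pass over all probes (limma, adjusted p = 0.279). It was −0.15 with median centring in place of loess (limma, adjusted p = 0.611), where the median of all probes was 0.12. A further Gfra1 probe was also below 0 on all 8 arrays, with −0.25, −0.21 and −0.08 in replicates 1, 2 and 3 and a mean of −0.18 ± 0.09 (limma, adjusted p = 0.313). The probes thus gave the same sign, with replicate 1 the least negative on one and the most negative on the other. On the brighter probe slide 2 minus slide 1 was −0.20, and 0.31 with median centring. Among markers of cells that make Gfra1, the ureteric tip list had medians of −0.31, −0.13 and −0.01 in replicates 1, 2 and 3, with 4 of 5 means below 0, and the nephron progenitor list −0.12, −0.20 and −0.11, with 4 of 8 below 0 (48.7% of all probes). In both lists 0 genes passed in limma's test, with 0 and 2 genes lower at an unadjusted p under 0.05 (8.15% of all probes). Their part in the Gfra1 values was not tested. The whole kidney was measured, so fewer cells of a type and less RNA per cell cannot be told apart, for this and every gene below.

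**Figure D2:**
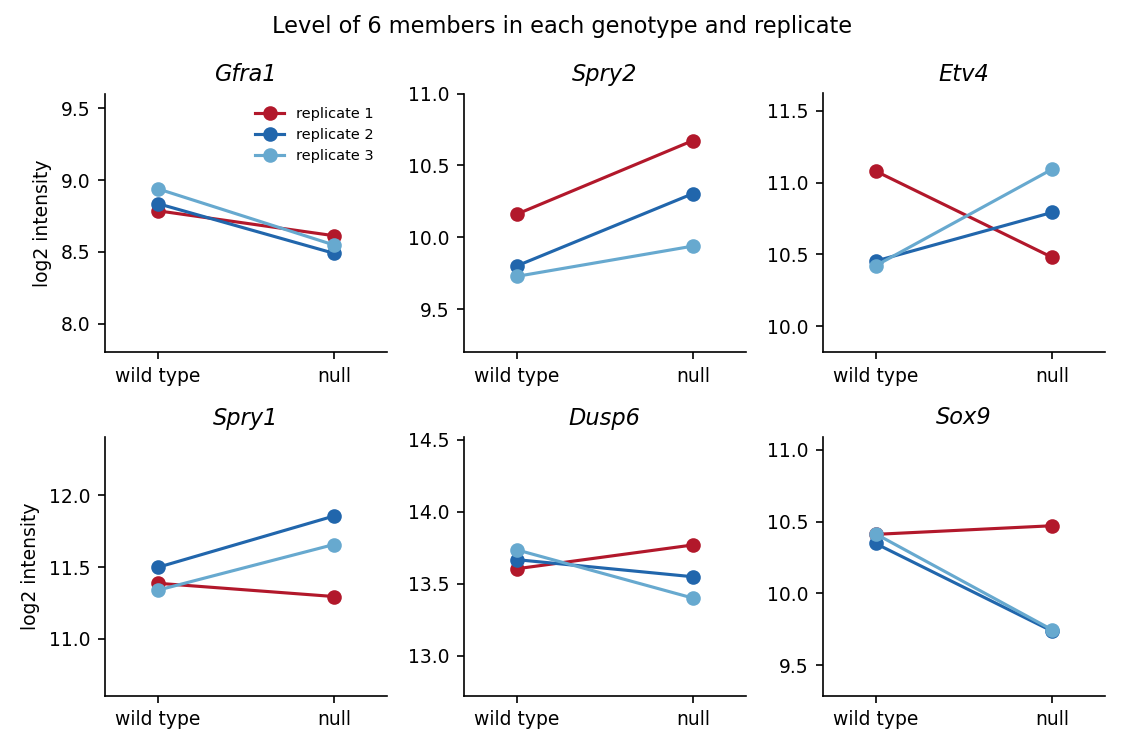
Log2 intensity (vertical axis, a span of the same size in each panel) of 6 members in wild-type and null RNA, with 1 line per replicate. The lines of Gfra1 go down and those of Spry2 go up in each replicate, while for Etv4 and Spry1 replicate 1 (red) goes down and replicates 2 and 3 (blue) go up.

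Etv4 and Etv5 encode ETS transcription factors that carry the RET signal into the nucleus. Etv4 had the widest spread of the members: −0.60, 0.34 and 0.67 in replicates 1, 2 and 3. All 4 arrays of replicate 1 lay between −0.84 and −0.41, and all 4 of slide 2 between 0.27 and 0.81. The mean of 0.14 ± 0.66 therefore describes neither slide (limma, adjusted p = 0.8003). Slide 2 minus slide 1 was 1.104, and 1.70 with median centring, which gave a mean of 0.37. The genotypes traded places: wild type was at 11.08 and null at 10.48 in replicate 1, against wild type at 10.45 and 10.42 and null at 10.79 and 11.09 in replicates 2 and 3 (log2 intensity).

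Etv5 showed the same order of replicates at a smaller size, with −0.11 in replicate 1 and 0.16 and 0.13 in replicates 2 and 3. Its mean was 0.06 ± 0.14 (limma, adjusted p = 0.722). On slide 2 the ratio depended on the dye: it was 0.30 and 0.23 with null RNA in Cy3, and 0.02 and 0.03 with null RNA in Cy5. The other Etv5 probe gave −0.18, 0.14 and 0.14 in replicates 1, 2 and 3. Slide 2 minus slide 1 was 0.25 on the brighter probe and 0.32 on the other. With median centring it was 0.62 on the brighter probe, with a mean of 0.15.

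The Sprouty genes and Dusp6 are feedback brakes that ERK signalling switches on. Spry1, the member whose loss causes extra ureteric buds in mice, had −0.09 in replicate 1 and 0.36 and 0.32 in replicates 2 and 3. Its arrays were tight within a slide, between −0.14 and −0.07 on slide 1 and between 0.30 and 0.40 on slide 2. Slide 2 minus slide 1 was 0.43, and the mean over replicates was 0.19 ± 0.25 (limma, adjusted p = 0.426). With median centring these were 1.035 and 0.45. The wild-type level hardly moved (11.41 ± 0.08), while the null level was 11.30 in replicate 1 and 11.86 and 11.66 on slide 2 (log2 intensity).

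Spry2 was the member with the smallest p. Its brighter probe had 0.51, 0.50 and 0.21 in replicates 1, 2 and 3, a mean of 0.41 ± 0.17 or 1.33 times wild type (limma, adjusted p = 0.279). With median centring the mean was 0.62. A dye effect lay on this probe: with null RNA in Cy5 the 4 arrays had a mean of 0.67, and with null RNA in Cy3 a mean of 0.20, with 1 array of replicate 3 at −0.04. Averaging both orientations cancels that effect in each replicate. With all 8 arrays and the replicate as a random block Spry2 passed (0.41, limma, adjusted p = 0.0352), when 5.43% of all probes passed. The dimmer Spry2 probe did not show the difference, at −0.10, 0.00 and −0.01 in replicates 1, 2 and 3, with null RNA well above background on 5 of 8 arrays.

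Dusp6, which encodes the phosphatase that inactivates ERK, went the other way from Spry1. Its ratios were 0.17, −0.12 and −0.34 in replicates 1, 2 and 3, with all arrays of slide 1 above 0 (0.10 to 0.25) and all arrays of slide 2 below 0 (−0.39 to −0.09). The mean of −0.10 ± 0.25 did not pass (limma, adjusted p = 0.679). It turned to 0.19 with median centring, where the median of all probes was 0.12. Slide 2 minus slide 1 was −0.39, but 0.17 with median centring. The Dusp6 direction between slides thus rested on the loess step.

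Spry1 and Dusp6 are read out from the same ERK signal, so the sequences before their start sites are set side by side here, with that of Gfra1, the member lower on every array, and the upstream Gdnf start. Each line gives the 250 bases before a start site from RefSeq (GRCm38.p6), 5′ to 3′ on the gene's strand, with GGAA or its reverse complement TTCC, the core that ETS factors such as ETV4 and ETV5 recognise, in capitals; this short core was chosen after the planned motifs had been searched. The windows are Spry1 at chr3:37639697-37639946 (plus strand), Dusp6 at chr10:99262981-99263230 (plus strand), Gfra1 at chr19:58455399-58455648 (minus strand) and Gdnf at chr15:7809798-7810047 (plus strand).
Spry1: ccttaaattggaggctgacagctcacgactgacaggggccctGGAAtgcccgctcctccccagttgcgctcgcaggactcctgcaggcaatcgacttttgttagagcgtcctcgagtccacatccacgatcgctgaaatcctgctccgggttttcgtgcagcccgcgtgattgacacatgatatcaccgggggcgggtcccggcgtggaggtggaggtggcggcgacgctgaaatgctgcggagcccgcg
Dusp6: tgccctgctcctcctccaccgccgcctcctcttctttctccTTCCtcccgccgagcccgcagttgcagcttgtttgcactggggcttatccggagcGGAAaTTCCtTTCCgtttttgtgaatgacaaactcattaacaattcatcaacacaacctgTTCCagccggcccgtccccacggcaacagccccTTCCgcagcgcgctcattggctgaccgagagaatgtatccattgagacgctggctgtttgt
Gfra1: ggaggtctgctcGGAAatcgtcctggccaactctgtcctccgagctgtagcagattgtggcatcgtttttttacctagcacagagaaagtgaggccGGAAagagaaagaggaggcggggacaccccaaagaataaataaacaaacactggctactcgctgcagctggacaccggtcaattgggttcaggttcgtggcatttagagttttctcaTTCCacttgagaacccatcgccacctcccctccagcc
Gdnf: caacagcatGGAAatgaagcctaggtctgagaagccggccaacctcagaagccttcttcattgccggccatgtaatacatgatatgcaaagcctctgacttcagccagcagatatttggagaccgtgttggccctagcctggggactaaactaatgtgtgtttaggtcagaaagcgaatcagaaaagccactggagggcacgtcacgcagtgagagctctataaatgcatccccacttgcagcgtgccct
The core occurred 1 time before Spry1, 6 times before Dusp6, 3 times before Gfra1 and 1 time before this Gdnf start, against a median of 3 (quartiles 2 and 4) over 32851 promoter windows, of which 93.4% held at least 1. A second Gdnf start had 7, Spry2 3, the Etv5 starts 4 and 0, and Sox8 0. In the whole 300-base windows of the 7 members with a RefSeq promoter here (9 windows), the longer ETS core CCGGAAG (8.86% of all windows), the SOX core ACAATGG (3.66%) and the p53 half-site (8.36%) were each found in 0, searched on both strands. These are descriptions of letters in a window.

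Sox8 and Sox9 encode related HMG-box transcription factors of the bud epithelium. Sox8 was dim. On its tested probe null RNA was well above background on all 8 arrays and wild-type RNA on the 4 arrays of slide 1 only. Its ratio was 0.07, 0.35 and 0.33 in replicates 1, 2 and 3, with a mean of 0.25 ± 0.15 (limma, adjusted p = 0.290). On slide 2, where wild-type RNA was not well above background, the null level was 6.85 and the wild-type level 6.51 (log2 intensity), a measured 1.26-fold. The probe passed the filter there only through null RNA, so this value is no support for a difference. The size of the mean ratio depends on how background is handled, since the offset of 50 added to each spot compresses dim ratios. It was 0.49 with an offset of 16 and 2.04 in the authors' deposited table (limma, adjusted p = 0.270 and 0.271). The other Sox8 probe gave 0.03 ± 0.08 and was well above background on slide 1 only.

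Sox9 had 3 probes that did not give one answer. The brightest tested probe had 0.06 in replicate 1 and −0.61 and −0.67 in replicates 2 and 3, with the 4 arrays of slide 2 between −0.67 and −0.61 and those of slide 1 between −0.03 and 0.15. Its wild-type level was constant (10.39 ± 0.04 in log2 intensity), and the null level was 10.47 in replicate 1 and 9.74 and 9.75 on slide 2. The mean of −0.41 ± 0.40, or 0.755 of wild type, did not pass (limma, adjusted p = 0.321), and was −0.19 with median centring. Slide 2 minus slide 1 was −0.70, and −0.12 with median centring. A dim Sox9 probe had −0.08, −0.03 and −0.15 in replicates 1, 2 and 3 (limma, adjusted p = 0.530).

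The Sox9 probe spotted 10 times behaved unlike the others. On slide 1 it was well above background on all 4 arrays in both genotypes, at 9.03 in null and 8.99 in wild type (log2 intensity). On slide 2 it was well above background on 0 of 4 arrays in either genotype, at 6.53 and 6.61. A loss of 2 or more (log2) from slide 1 to slide 2 in both genotypes was seen for 542 of 27851 probes that were well above background on any array (1.95%), and the reverse for 1 probe. The other Sox9 probes did not share the loss, at 10.41 and 10.38 in wild type on the brightest probe. It was not tested, being too dim on slide 2, and its slide 1 ratio was 0.04. Cartilage, another tissue in which Sox9 is active, had Col2a1 at −0.62, −0.59 and −0.19 and Col9a1 at −0.51, −0.38 and −0.30 in replicates 1, 2 and 3, and Acan at 0.04, −0.05 and −0.07. Their part in the Sox9 values was not tested.

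**Figure D3:**
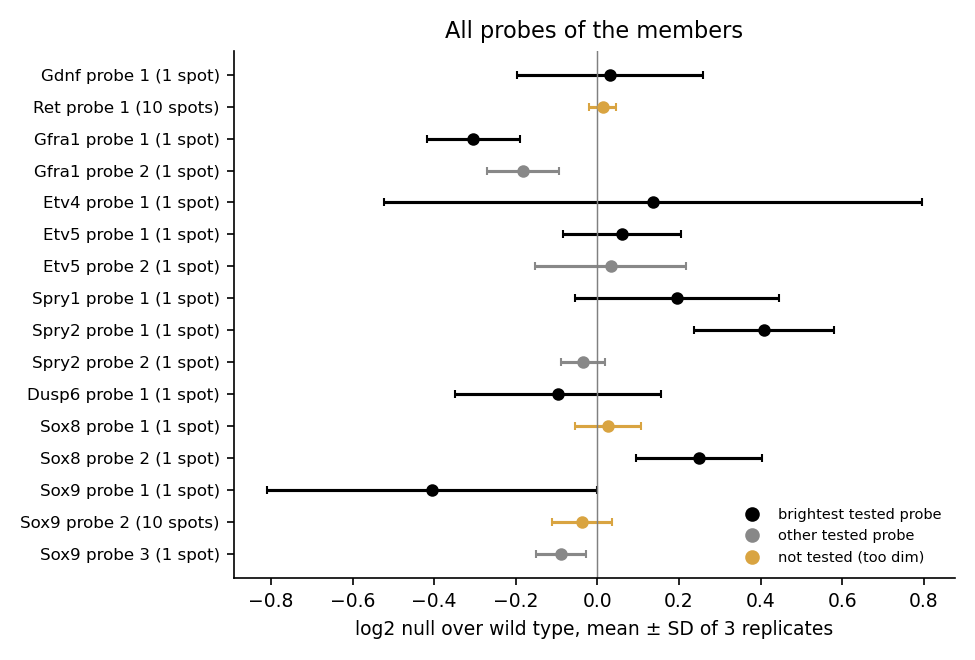
Mean ± SD over 3 replicates of the log2 ratio of null over wild type (horizontal axis) for all 16 probes of the 10 members, with the number of spots of each. Both Gfra1 probes lie below 0, while the probes of Spry2 and of Sox9 differ among themselves, and the Ret probe sits at 0 at the brightness of background.

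Set by slide, the test of slide 2 minus slide 1 has an arm of 1, since slide 1 holds replicate 1 alone. It assumes that replicate 1 varies like replicates 2 and 3, which may share a wild-type extract, so its p-values describe these libraries and do not bear out a difference between slides in general. By that test 5 of 9 members passed, Gdnf, Etv4, Spry1, Dusp6 and Sox9 (limma with slide as a term, adjusted p of 0.0113 or less), against 44.4% of all probes, so the members' share was near that of the array as a whole. At an unadjusted p under 0.05 it was 7 of 9, with Etv5 and Sox8 added, against 50.7% of all probes. With median centring slide 2 minus slide 1 moved up from −0.20 to 0.31 for Gfra1 and from −0.16 to 0.42 for Spry2. It also moved from 0.25 to 0.62 for Etv5, from −0.39 to 0.17 for Dusp6 and from −0.70 to −0.12 for Sox9. Gdnf, Etv4 and Spry1 moved up as well, and Sox8 hardly moved (0.27 and 0.26). A shift of most members in one direction is thus part of this change. Which members kept to one ratio on both slides thus depends on the scaling. Without replicate 1, 7 of 9 members passed (all but Gdnf and Etv5; 6 of 8 leaving Sox8 out), against 56% of all probes. That comparison rests on replicates 2 and 3 of a single slide, and with 1 value per slide 0 of 9 members and 0 of 20880 probes passed, with 522 probes at an unadjusted p under 0.05 (limma). With slide as a fixed block 4 of 9 passed, Gfra1, Spry2, Sox8 and Sox9 (3 of 8 leaving Sox8 out), against 40.9% of all probes, and the error of that fit too comes from replicates 2 and 3. Slide and replicate 1 cannot be told apart here. Sox8 had to differ between the genotypes on slide 2, so its place in the counts above is no support.

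**Figure D4:**
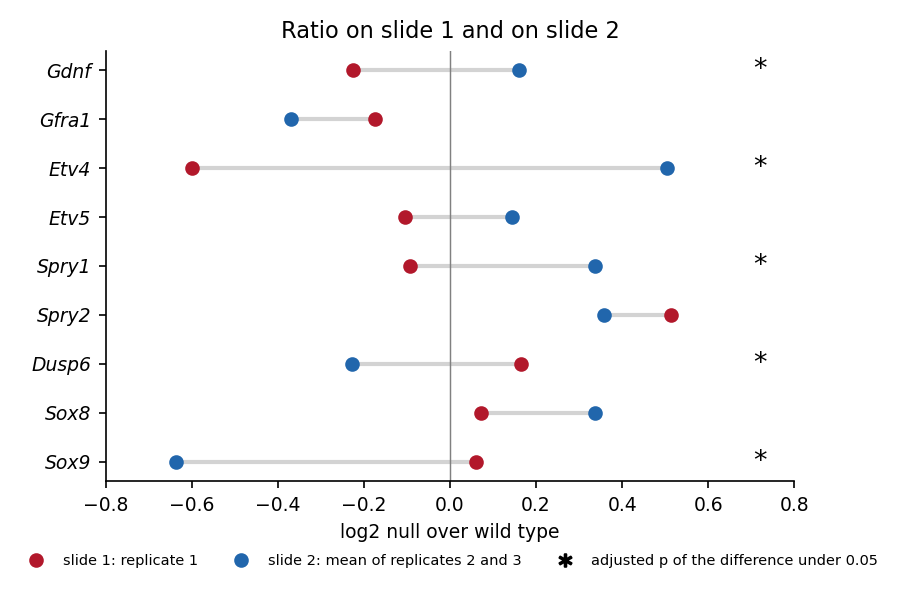
Log2 ratio of null over wild type (horizontal axis) on slide 1 (red, replicate 1) and on slide 2 (blue, mean of replicates 2 and 3) for 9 members, with an asterisk where the difference passed in the test that has 1 replicate on slide 1. Etv4 spans from −0.60 to 0.50 and Sox9 from 0.06 to −0.64, while Gfra1 stays below 0 and Spry2 and Sox8 above 0 on both slides.

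Genes around the pathway were taken from lists of ligands, regulators and relays. None of them passed over all probes in limma's test, in any list below. At an unadjusted p under 0.05 (limma), 9.02% of all probes were higher and 8.15% lower. At that cut there were 1 higher of 6 tested ligands and coreceptors and 2 lower of 18 regulators of Gdnf. There were also 1 lower of 12 regulators of Ret and 0 of 6 tip genes. The signal relay had 3 higher and 4 lower of 25, the feedback genes 2 lower of 8 and the FGF genes 1 higher and 2 lower of 5, with Frs2 in both the relay and the FGF list. Of the other GDNF family ligands and coreceptors, 6 of 8 were tested, with a median of 0.00. Gfra3, the coreceptor for artemin, was higher in each replicate at 0.37 ± 0.23 (limma, adjusted p = 0.280), and Nrtn, a GDNF-like ligand, had −0.32 in replicate 1 and 0.49 and 0.60 in replicates 2 and 3. Beside Gfra3, the peripheral nerve and neural crest markers had medians of 0.05, 0.30 and 0.24 in replicates 1, 2 and 3, with 5 of 6 means above 0 (51.3% of all probes) and 3 of 6 above 0 in each replicate (21%). None of the 6 passed in limma's test, and 1 was higher at an unadjusted p under 0.05 (9.02% of all probes). The part of these markers was not tested. The cell adhesion molecule gene Ncam1 had −0.37 ± 0.34, and the ligand gene Artn −0.14 ± 0.07.

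Among genes that switch Gdnf on in the mesenchyme or confine it, 12 of 18 tested had a mean below 0 (48.7% of all probes) and 6 above. Their median was −0.16, against 0.01 over all probes. In all 3 replicates 5 of 18 were lower and 1 of 18 higher (19.4% and 21% of all probes). Bmp4, a restraint on budding, had −0.37, −0.53 and −0.39 in replicates 1, 2 and 3, a mean of −0.43 ± 0.09 (limma, adjusted p = 0.279). The progenitor transcription factor gene Osr1 had −0.45 ± 0.12. Slit2, whose product limits where Gdnf is expressed through the receptor ROBO2, had 0.04 in replicate 1 and −0.94 and −0.92 in replicates 2 and 3, and Six2 had −0.02, −0.45 and −0.46. Bmp4 and Osr1 thus held over the replicates, and Slit2 and Six2 were lower on slide 2 alone. Pax2, a direct activator of Gdnf and Ret, stayed at −0.05 ± 0.00, with −0.05 in each replicate.

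Of genes that keep Ret on in the bud or supply retinoic acid for it, 10 of 12 had a mean below 0, against 48.7% of all probes, with a median of −0.14. Retinoic acid receptors carry the signal from stroma on which Ret expression depends. Rarg had −0.22, −0.19 and −0.20 in replicates 1, 2 and 3 (limma, adjusted p = 0.284) and Rara −0.18, −0.12 and −0.14, while Rarb had 0.06, −0.70 and −0.74. Hoxb7, a bud transcription factor gene, was higher in each replicate at 0.20 ± 0.15. Beside these genes, the stromal marker list had medians of −0.26, −0.31 and −0.40 in replicates 1, 2 and 3, with 7 of 8 means below 0 (48.7% of all probes) and 4 of 8 below 0 in each replicate (19.4%). None of the 8 passed in limma's test, and 3 were lower at an unadjusted p under 0.05 (8.15% of all probes). The ureteric epithelium list had medians of −0.02, −0.06 and −0.09. Their part in the values above was not tested.

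Tip genes that depend on RET signalling had a median of 0.07, with 4 of 6 means above 0 (51.3% of all probes). Wnt11, a tip ligand in a loop with Gdnf, had −0.31, −0.16 and −0.01 in replicates 1, 2 and 3. Myb had 0.02, 0.42 and 0.47, and the receptor gene Met 0.38, 0.04 and −0.02. No common direction was seen among them.

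The relay from RET to ERK and PI3 kinase had 25 of 28 genes tested, 12 with a mean above 0 and 13 below. Mapk3, which encodes the kinase ERK1, had −0.39 ± 0.09, and the docking protein gene Gab1 −0.46 ± 0.23, the regulatory subunit gene Pik3r1 −0.48 ± 0.23 and the docking protein gene Frs2 0.32 ± 0.03 (limma, adjusted p = 0.279 for each). All 4 had the same sign in each replicate, but they were named for the smallest p of the list, which favours such genes. Over the whole list 7 of 25 were higher and 5 of 25 lower in all 3 replicates (21% and 19.4% of all probes). Of other ERK feedback genes, 8 of 13 were tested, with a median of −0.01. The phosphatase gene Dusp4 had −0.15 in replicate 1 and −1.02 and −1.07 on slide 2, Etv1, a relative of Etv4 and Etv5, had −0.12, −0.50 and −0.47, Il17rd 0.09, −0.40 and −0.43, and Phlda1 −0.10, 0.46 and 0.46. Fibroblast growth factors reach the bud in parallel: the receptor gene Fgfr2 had −0.40, −0.35 and −0.26 in replicates 1, 2 and 3, its ligand gene Fgf10 −0.18, −0.28 and −0.22, and Fgf7 0.03, −0.10 and −0.22. Fgfr2 and Fgf10 were lower in each replicate, 2 of 5 tested genes against 19.4% of all probes, and did not pass (limma, adjusted p = 0.279 and 0.280).

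**Figure D5:**
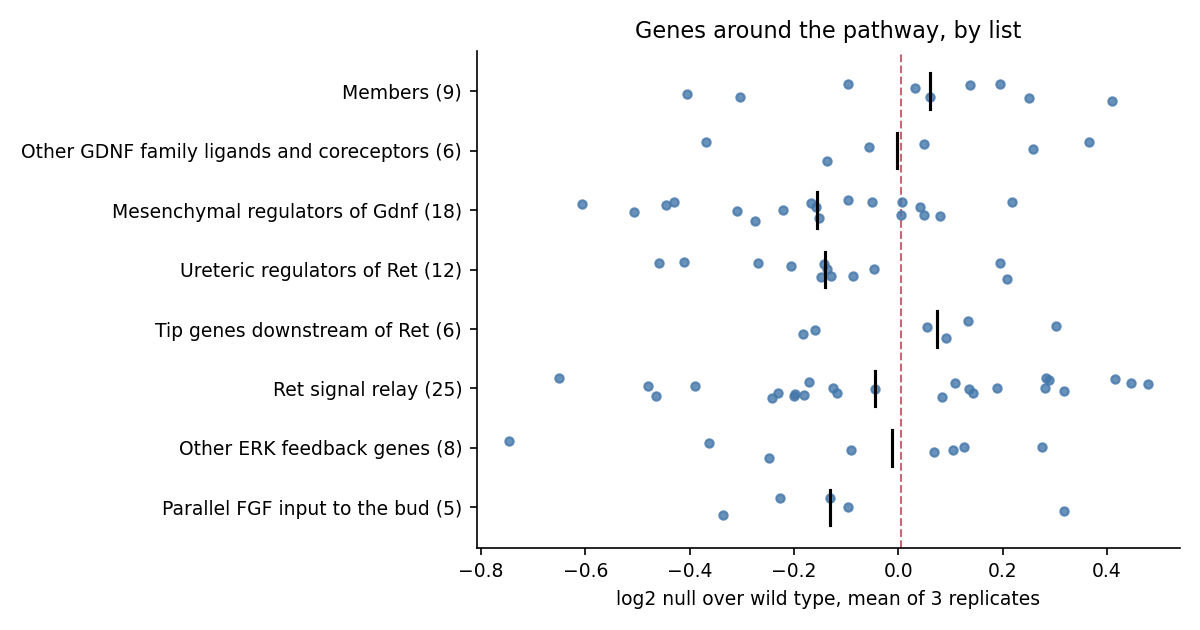
Each point is the mean log2 ratio of null over wild type (horizontal axis) of 1 tested gene in 8 lists (rows, with the number tested), the black bar is the median of the list, and the dashed line is the median of all tested probes (0.01). The medians of the lists lie between −0.16 and 0.07, and genes of each list lie on both sides of 0.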

How the data were processed

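RNA from p53 null and wild-type kidneys was hybridised in pairs to 8 arrays. The authors deposited scanner output with a linear intensity for each spot and channel. Per the file headers, Feature Extraction 10.5.1.1 made it (6.1 in the submitters' processing notes), with extended-range extraction set for slide 1 only. The authors' log10 ratios in those files equalled the deposited value table once turned to null over wild type (largest difference 4.94e-06).

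Median signals were background-corrected (normexp, offset 50) and loess-normalized per array in limma 3.58.1 (R 4.3.3), without 1639 control spots and with flagged spots missing. Swapped arrays were turned, orientations averaged within a replicate, and 20880 of 41174 probes kept where a genotype was well above background on 50% of the arrays of each replicate. limma tested 3 replicate values against 0, with Benjamini-Hochberg adjustment, after a check on simulated data. The files hold no mean spot signal, so the median was used. Levels came from Aquantile normalization. RefSeq tables (GRCm38.p6) served for names and promoters. A gene is shown by its brightest tested probe. All members were named, plus up to 4 genes per other list by smallest p and the 3 genes most like Gdnf. Members and lists were chosen with earlier results of these data known; Pax2, the marker genes and the other Sox9 detail were picked with their values in view. The number of arrays limits precision. A planned comparison of protein sequences was not run. Some genes of the lists are not reported here by name.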

Additional observations from a re-analysis of the deposited data

Results flagged for a closer look

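The ratio of null over wild type had unlike values on slide 2 and slide 1 for several members. The difference (slide 2 minus slide 1, log2) was 0.38 for Gdnf, 1.104 for Etv4, 0.43 for Spry1, −0.39 for Dusp6 and −0.70 for Sox9, each past the threshold (limma with slide as a term, adjusted p = 0.0105, 8.1e-08, 0.00434, 0.0113 and 2.4e-05). Slide 1 is 1 replicate, assumed in this test to vary like replicates 2 and 3, so these p-values describe the libraries at hand and not slides in general. The Sox9 value is that of the brightest probe, and the other tested Sox9 probe had a difference of −0.01. With median centring the difference was −0.12 for the brightest Sox9 probe and 0.17 for Dusp6. Etv5 differed by 0.25 on its brighter probe without passing. It is given because on that probe all 4 arrays of slide 1 lay below 0 and all 4 of slide 2 above 0. The other Etv5 probe differed by 0.32 without that split, as its slide 2 arrays with null RNA in Cy5 lay at −0.01 and −0.02. No array stood apart from the other 3 of its dye orientation for any of the 9 tested members (18 sets of 4 arrays examined, where chance alone flags about 1 in 20). Each set mixed arrays of slide 1 and slide 2, and a difference between slides widens its spread, so this check says little about single arrays.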

How the results depend on the processing

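The 17 planned settings and 1 added after the data were seen (1 value per slide) were compared. The member count of 0 and probe count of 0 held except with the replicate block on all 8 arrays (1 member, 1133 probes), with slide as a fixed block (4 members, 8535 probes) and among fits leaving out a replicate (0 to 7 members, 0 to 11702 probes, the upper values without replicate 1). In the block fit arrays of a replicate correlated at 0.72, and only Spry2 changed its call among members. Directions turned for Gdnf (−0.0329 with slide as a block and with 1 value per slide, −0.0333 with null in Cy3 only, −0.0567 to 0.1595 leaving out a replicate), Etv4 (−0.0475 with slide as a block and with 1 value per slide, −0.13 to 0.50 leaving out a replicate), Etv5 (−0.0284 with null in Cy5 only) and Dusp6 (0.19 with median centring, −0.2276 to 0.0234 leaving out a replicate). With median centring the slide difference turned for Gfra1 (0.31), Spry2 (0.42) and Dusp6 (0.17); that scaling moved the median of all probes to 0.12. The median ratio of the members (0.06) was −0.0308 with slide as a block and with 1 value per slide, 0.19 with median centring and 0.0142 to 0.1595 leaving out a replicate. The cause was not tested. Gfra1, Spry1, Spry2, Sox8 and Sox9 kept the sign of their mean in every setting that gave them a value. With median centring Gfra1 was at −0.15 and Sox9 at −0.19, and the strict filter removed Sox8. No setting used replicate 1 alone, in which Spry1 (−0.09) and Sox9 (0.06) had the sign opposite to their mean. The kept sign of these genes thus says nothing of replicate 1. Low signal limits Ret, Sox8 and 2 of the 3 Sox9 probes.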
